A study of Mus musculus with 6 samples.

Results

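The mouse liver array data were read here for 10 genes that mark resident Kupffer cells, the macrophages that live in the liver sinusoids. The genes are Clec4f, Timd4, Vsig4, Cd5l, Marco, Cd163, Spic, Id3, Folr2 and Slc40a1, and they were chosen by name, with no measured value in the rule. They have 11 of the 41174 probes of the array besides its control spots, 1 probe each and 2 for Spic. Total RNA was taken from whole livers of male C57BL/6J mice, an inbred strain, aged 8 weeks when the diets began and 20 weeks when killed, 12 weeks later. The CFD diet group (3 arrays) ate an iron-supplemented, amino acid-defined diet with 0.17% methionine, no choline and no folic acid. Mice of the control group (3 arrays) ate that same iron-supplemented base with folic acid (2 mg/kg), choline bitartrate (0.3%) and more methionine (0.4%), so the diets differed in 3 nutrients at once. The labels number the replicates without saying that each is a separate mouse, so the p-values speak only of the variation among these 6 samples, which may be technical. A numbered liver below means the array of that replicate number, not a mouse known to be separate. The comparison asks how each marker differed in the liver after the deficient diet.

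Kupffer cells are seeded before birth and renew themselves in the sinusoids, where they clear bacteria, dead cells, old platelets and red cell products from the blood. Their identity depends on signals from neighbouring stellate cells, endothelial cells and hepatocytes. When resident cells are lost, monocytes from the blood can settle in the niche and take on Kupffer cell genes by degrees, with Timd4 among the late ones. The 10 markers cover several of these tasks. Clec4f, Timd4, Vsig4, Marco, Cd163 and Folr2 are surface receptors, Cd5l is a secreted protein, Spic and Id3 regulate transcription, and Slc40a1 (ferroportin) exports iron.

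RefSeq (GRCm38.p6) held the sequence before the start site for 9 of the 10 genes. The 250 bases before each start are printed for 6 of them, the first 4 because they hold the PU-box, and Timd4 and Cd163 as the genes with the most negative changes. Capitals mark the PU-box, the letters GAGGAA on either strand (TTCCTC where it lies on the opposite strand), which the macrophage factor PU.1 and its relative Spi-C can bind.
Vsig4: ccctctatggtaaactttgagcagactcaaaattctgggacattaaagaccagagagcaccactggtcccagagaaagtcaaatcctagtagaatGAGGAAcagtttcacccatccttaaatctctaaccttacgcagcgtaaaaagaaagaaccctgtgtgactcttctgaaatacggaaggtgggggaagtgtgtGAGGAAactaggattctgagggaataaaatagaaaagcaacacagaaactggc
Cd5l: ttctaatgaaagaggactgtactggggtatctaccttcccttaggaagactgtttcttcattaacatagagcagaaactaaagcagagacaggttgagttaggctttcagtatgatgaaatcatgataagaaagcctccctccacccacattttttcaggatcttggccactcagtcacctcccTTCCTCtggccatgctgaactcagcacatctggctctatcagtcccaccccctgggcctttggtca
Marco: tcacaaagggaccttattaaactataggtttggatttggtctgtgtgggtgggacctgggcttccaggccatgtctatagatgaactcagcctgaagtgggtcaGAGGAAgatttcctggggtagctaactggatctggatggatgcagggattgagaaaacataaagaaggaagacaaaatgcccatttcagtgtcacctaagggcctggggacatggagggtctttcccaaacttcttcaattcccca
Id3: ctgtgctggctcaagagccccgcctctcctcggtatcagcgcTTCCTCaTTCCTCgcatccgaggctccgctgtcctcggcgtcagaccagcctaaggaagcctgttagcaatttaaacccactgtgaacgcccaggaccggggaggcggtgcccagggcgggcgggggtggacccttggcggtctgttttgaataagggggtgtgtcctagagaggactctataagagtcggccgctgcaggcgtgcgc
Timd4: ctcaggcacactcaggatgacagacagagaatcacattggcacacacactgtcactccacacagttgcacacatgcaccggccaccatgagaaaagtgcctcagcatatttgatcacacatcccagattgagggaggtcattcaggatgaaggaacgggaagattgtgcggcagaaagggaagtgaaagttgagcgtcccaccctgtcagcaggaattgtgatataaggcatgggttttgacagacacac
Cd163: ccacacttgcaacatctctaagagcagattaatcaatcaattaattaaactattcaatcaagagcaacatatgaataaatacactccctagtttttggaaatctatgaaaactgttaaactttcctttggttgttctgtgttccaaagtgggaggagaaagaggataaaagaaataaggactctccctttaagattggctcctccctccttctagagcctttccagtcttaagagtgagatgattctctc

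The windows are chrX:96293439-96293688 (minus strand) for Vsig4, chr3:87357631-87357880 (plus) for Cd5l, chr1:120505025-120505274 (minus) for Marco and chr4:136143572-136143821 (plus) for Id3. Those of Timd4 and Cd163 are chr11:46810549-46810798 and chr6:124304401-124304650, both on the plus strand. Folr2 had 2 windows. A PU-box was found in 4 of the 9 genes, 4 of 10 windows, against 23.3% of the 32851 RefSeq windows of the same length. Vsig4 and Id3 each had 2 matches. Each of the 4 genes with a match had a higher mean on the CFD diet, with Vsig4 short of the threshold of the test below. Spic, which rose as well, had no PU-box in its window. The letters TGCTGAG come from the element that Maf and Bach factors recognise. They were in a window of Timd4, Cd5l, Spic and Folr2 (4 of 9 genes, 4 of 10 windows), against 6.21% of all windows. The other Folr2 window lacked them. GGCGCC, a motif bound by Smad proteins downstream of bone morphogenetic proteins, was in none of the 9, against 9.59% of all windows. Matches of different motifs shared no bases. These motifs were picked with results of the same data known, no test was made, and a match or its absence in a window says nothing of binding.

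The scanner software flagged 21690 to 26271 probes per control array, and 23586 to 29045 per CFD diet array, as well above background. All 10 markers were well above background on all 6 arrays and none was saturated. Levels below are log2 of the processed signal minus each array's 75th percentile, so a level of 0 is the array's 75th percentile and a level of one probe is not set against that of another. The 75th percentile itself was 365 to 438.8 on control arrays and 404.1 to 670.2 on CFD diet arrays. Each pair of same-numbered replicates was on a single slide, with 1 control and 1 CFD diet array on each of the 3 slides. The liver label was met by strong hepatocyte signal in both groups. Summed over 11 hepatocyte markers, the level (linear, relative to the 75th percentile) was 2430 to 2920 in control livers and 1430 to 2320 on the CFD diet. In whole liver, fewer cells of a type and less RNA per cell cannot be told apart.

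The resident markers did not move as a block. Of the 10 genes, 4 rose on the CFD diet (Marco, Spic, Id3 and Cd5l), 3 fell (Timd4, Folr2 and Clec4f) and 3 did not pass the test (Cd163, Slc40a1 and Vsig4), by limma with a Benjamini-Hochberg adjusted p below 0.05 over 15911 genes. Among all tested genes 23.7% were called higher and 27.4% lower, 51.1% in all, and the 7 of 10 markers called are to be read against that background. The levels of the groups did not overlap for 9 markers, 5 higher and 4 lower, against 62.8% of all tested genes, 28.3% higher and 34.6% lower. The median log2 change of the markers was 0.25 (all tested genes -0.11), and the median of its absolute size was 1.02 (all tested genes 0.51). Changes ran from -2.02 for Cd163 to 1.77 for Marco. Every value is an RNA level of whole liver or a difference between such levels, not a cell number.

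**Figure D1:**
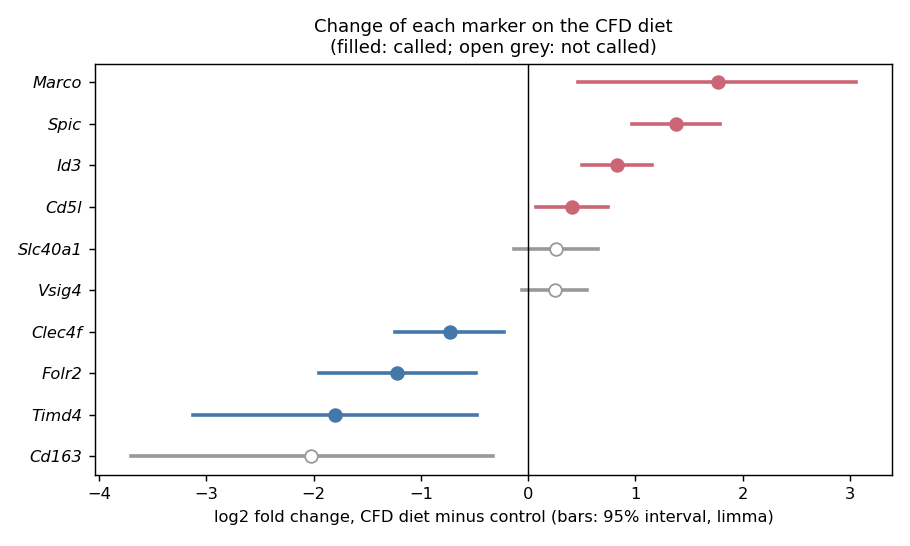
Log2 change on the CFD diet (CFD diet minus control) for each of the 10 resident Kupffer cell markers, with 95% confidence intervals from limma (3 arrays in each group). Markers lie on both sides of 0, from -2.02 for Cd163 to 1.77 for Marco, and the intervals of Vsig4 (-0.06 to 0.55) and Slc40a1 (-0.13 to 0.65) cross 0.

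Among the surface receptors, the lectin Clec4f and the dead-cell receptor Timd4 were lower. Clec4f, a C-type lectin made in mice almost solely by Kupffer cells, binds sugars exposed on desialylated platelets. Its probe lies at chr6:83670672-83670730 in build mm7, the build of the files. Its processed signal was 12242, 10541 and 11269 in control livers 1 to 3 and 9524, 9565 and 9102 in CFD diet livers 1 to 3. After scaling, the levels were 4.80, 4.85 and 4.81 in the control group and 3.95, 4.57 and 3.76 on the CFD diet. The control livers lay close together, the CFD diet livers were all below them, and CFD diet liver 2 stood nearest to the controls. Clec4f fell by 0.73 ± 0.21 on the log2 scale (SE, n = 3 arrays in each group, limma adjusted p = 0.0277), a level 1.66-fold lower. The adjusted p ranged from 0.00192 to 0.0935 over the 15 alternatives. The call was lost when control liver 1 (-0.74, limma adjusted p = 0.0664), 2 (-0.71, 0.0733) or 3 (-0.74, 0.0766) or CFD diet liver 1 (-0.66, 0.0804) or 3 (-0.56, 0.0850) was left out, and under quantile normalization (-0.39, 0.0680), and every one of these changes was still negative.

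Timd4 encodes a receptor for phosphatidylserine, the lipid that dying cells expose, and is the usual sign of Kupffer cells of embryonic origin. Its probe (chr11:46800424-46800483, mm7) had a processed signal of 247, 199 and 158 in control livers and 82.3, 135 and 43.4 on the CFD diet. Scaled levels were -0.83, -0.88 and -1.35 in the control group against -2.91, -1.58 and -3.95 on the CFD diet. No CFD diet liver reached the lowest control, and the CFD diet livers differed more among themselves (SD 1.19) than the controls did (SD 0.29). Timd4 fell by 1.80 ± 0.55 (log2, SE; limma adjusted p = 0.0326), a level 3.47-fold lower. With normexp background correction the change was -1.01. Leaving out any array but CFD diet liver 2 ended the call, at changes of -1.70 without control liver 1 (limma adjusted p = 0.0846), -1.73 without 2 (0.0851), -1.96 without 3 (0.0606), -1.75 without CFD diet liver 1 (0.0835) and -1.23 without 3 (0.0649). The range over all 15 alternatives was 0.00384 to 0.0984.

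Cd163 and Folr2 were the other receptors with lower levels. CD163 takes up complexes of haemoglobin and haptoglobin. Its signal (probe at chr6:124312766-124312825, mm7) was 679, 774 and 656 in control livers and 454, 354 and 84.0 on the CFD diet. Scaled levels were 0.63, 1.08 and 0.70 in the control group and -0.45, -0.19 and -3.00 on the CFD diet, so the groups did not overlap and CFD diet liver 3 lay far below the other two. The difference was -2.02 ± 0.71 (log2, SE; 95% interval -3.70 to -0.33), a 4.05-fold lower mean, and missed the threshold (limma adjusted p = 0.0501). Without CFD diet liver 3 the difference shrank to -1.12 and passed (limma adjusted p = 0.0108), and without CFD diet liver 2 it was -2.53 (0.0363). It also passed with the slide as a block (-2.02, 0.0404), with normexp (-1.52, 0.0146) and with scaling to the array median (-2.22, 0.0202). Its adjusted p ran from 0.0108 to 0.124 over the 15 alternatives. In a second fit, over all tested probes in place of genes, Cd163 passed (limma adjusted p = 0.049).

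Folr2 encodes folate receptor beta, which macrophages use to bind folate, the vitamin that the CFD diet lacks. The probe lies at chr7:97886503-97886562 (mm7). Its signal was 1614, 1481 and 1374 in control livers and 721, 1065 and 879 on the CFD diet, which gave scaled levels of 1.88, 2.02 and 1.77 against 0.22, 1.40 and 0.39. All CFD diet livers were below all controls, and CFD diet liver 2 again came closest. Folr2 fell by 1.22 ± 0.31 (log2, SE; limma adjusted p = 0.0158), a level 2.33-fold lower. The call was lost without control liver 2 (-1.16, limma adjusted p = 0.0501) or CFD diet liver 3 (-1.08, 0.0588), within a range of 0.000768 to 0.0588 over the 15 alternatives.

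**Figure D2:**
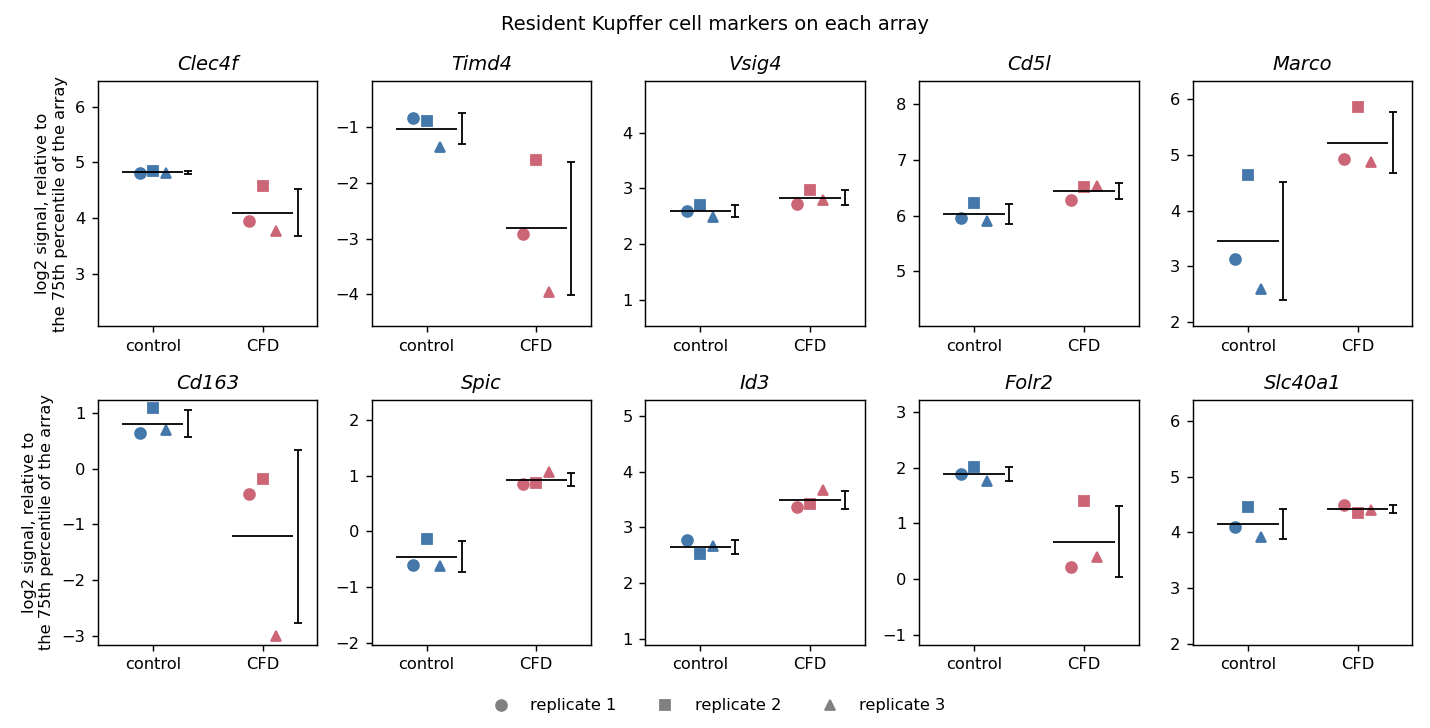
Scaled log2 level of each resident Kupffer cell marker on every array (log2 of the processed signal minus the array's 75th percentile), 1 panel per gene, with points for the 3 control and 3 CFD diet livers and the group mean with its SD. The panels have their own zero but span the same range, and show Cd163 in CFD diet liver 3 at -3.00, below the other CFD diet livers at -0.45 and -0.19.

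Marco went the other way. It is a class A scavenger receptor with a collagen-like stalk that binds bacteria and particles, and it is also made by other macrophages. The processed signal of its probe (chr1:120342087-120342147, mm7) was 3857, 9137 and 2439 in control livers and 18880, 23494 and 19767 on the CFD diet. Scaled levels were 3.14, 4.65 and 2.60 in the control group and 4.93, 5.86 and 4.88 on the CFD diet. The groups did not overlap, although control liver 2 (4.65) was near the lowest CFD diet liver (4.88). Marco rose by 1.77 ± 0.54 (log2, SE; limma adjusted p = 0.0323), a level 3.40-fold higher and the greatest rise of the 10 markers. Control livers varied more (SD 1.06) than CFD diet livers (SD 0.55). Leaving out control liver 2 raised the change to 2.36 (limma adjusted p = 0.00635). Leaving out control liver 1 (1.60, 0.0893) or 3 (1.34, 0.0916) or CFD diet liver 1 (1.91, 0.0594), 2 (1.45, 0.0985) or 3 (1.94, 0.0625) ended the call, and 0.00635 to 0.0985 was also the range over the 15 alternatives.

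Vsig4 and Cd5l shifted little. VSIG4, also called CRIg, is the complement receptor with which Kupffer cells catch C3-coated bacteria. Its signal (probe at chrX:91575173-91575232, mm7) was 2644, 2374 and 2240 in control livers and 4105, 3193 and 4656 on the CFD diet, and scaled levels were 2.59, 2.70 and 2.48 against 2.73, 2.98 and 2.80. The CFD diet livers were all slightly higher. The difference was 0.25 ± 0.13 (log2, SE; 95% interval -0.06 to 0.55; limma adjusted p = 0.149), a 1.19-fold higher mean that did not pass. Quantile normalization gave 0.44, which passed (limma adjusted p = 0.0168), and scaling to the array median gave 0.04 (0.839), the ends of the range over the alternatives.

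Cd5l encodes a secreted protein of tissue macrophages, also called AIM, which circulates with IgM and is a target of the nuclear receptor LXR. The signal at chr3:87483753-87483812 (mm7) was 27204, 27368 and 24165 in control livers and 48159, 36942 and 61823 on the CFD diet. Scaled levels were 5.95, 6.23 and 5.91 in the control group and 6.28, 6.51 and 6.53 on the CFD diet. Only a small gap separated control liver 2 from CFD diet liver 1. Cd5l rose by 0.41 ± 0.14 (log2, SE; limma adjusted p = 0.0482), a level 1.33-fold higher. With the slide as a block it no longer passed (0.41, limma adjusted p = 0.0680), nor with scaling to the array median (0.21, 0.338), nor without control liver 1 (0.37, 0.135) or 3 (0.35, 0.165) or CFD diet liver 2 (0.38, 0.0929) or 3 (0.37, 0.139). Its adjusted p ran from 0.00654, under quantile normalization, to 0.338. In the fit over all tested probes in place of genes, Cd5l did not pass (limma adjusted p = 0.0503).

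The transcription regulators Spic and Id3 gave the firmest results. Spi-C is an ETS-family factor of macrophages that recycle red cells, and haem induces it. It was measured by a pair of probes at chr10:88234176-88234235 and chr10:88234289-88234348 (mm7). The probe with the higher mean had signals of 290, 335 and 261 in control livers and 1117, 737 and 1407 on the CFD diet, and scaled levels of -0.60, -0.13 and -0.63 against 0.85, 0.87 and 1.07. The second probe had levels of -2.43, -2.18 and -2.62 against -0.93, -1.28 and -0.97. On both probes every CFD diet liver lay above every control. Spic rose by 1.38 ± 0.17 (log2, SE; limma adjusted p = 0.00125), a level 2.60-fold higher, and the second probe gave 1.35 ± 0.17 (limma adjusted p = 0.00128 in the fit over all probes).

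Id3 encodes a helix-loop-helix protein that binds E proteins and keeps them off DNA, and Kupffer cells need it to form. Many other liver cells make it too. Its probe spans chr4:135522597-135522771 (mm7). The signal was 3000, 2093 and 2568 in control livers and 6394, 4308 and 8523 on the CFD diet, and scaled levels were 2.77, 2.52 and 2.67 against 3.37, 3.41 and 3.67. The groups stood well apart. Id3 rose by 0.83 ± 0.14 (log2, SE; limma adjusted p = 0.00357), a level 1.78-fold higher. Spic and Id3 were the markers called under all 15 alternatives, with changes of 1.18 to 1.54 for Spic and 0.62 to 1.06 for Id3.

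Slc40a1 encodes ferroportin, through which Kupffer cells, hepatocytes and other cells release iron. Its signal (chr1:46145061-46145120, mm7) was 7461, 7988 and 6041 in control livers and 13840, 8255 and 14135 on the CFD diet. Scaled levels were 4.09, 4.45 and 3.91 in the control group and 4.49, 4.35 and 4.40 on the CFD diet. This was the marker whose groups overlapped, since control liver 2 was above 2 of the CFD diet livers. The difference was 0.26 ± 0.16 (log2, SE; 95% interval -0.13 to 0.65; limma adjusted p = 0.218), a 1.20-fold higher mean that did not pass. Under quantile normalization it was 0.62 and passed (limma adjusted p = 0.0426), the lowest of a range that reached 0.782.

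Within slides the directions held for all markers but Slc40a1. For every other marker the groups did not overlap, so the sign could not differ between slides, and this is no separate check. The Slc40a1 differences, CFD diet minus control, were 0.40, -0.10 and 0.49 on slides 1 to 3. On slide 2 the falls were smallest for Clec4f (-0.29, against -0.86 and -1.04 on slides 1 and 3), Timd4 (-0.70, against -2.08 and -2.60) and Folr2 (-0.62, against -1.66 and -1.38). Slide 2 also had the smallest rises of Marco (1.22, against 1.80 and 2.28) and Spic (0.99, against 1.45 and 1.70). Cd163, Id3 and Vsig4 did not share this order. Cd163 had -1.08, -1.27 and -3.70 on slides 1 to 3, and Id3 (0.60, 0.89 and 0.99) and Vsig4 (0.14, 0.28 and 0.32) had their smallest difference on slide 1. Cd5l (0.33, 0.29 and 0.62) was lowest on slide 2 by a narrow margin, and Slc40a1 was lowest on slide 2 too. The means over the pan-macrophage list below were 1.68, 1.41 and 2.32 on slides 1 to 3. Slide 2 was again the lowest there. With the slide as a block in the fit, Cd5l and Cd163 were the markers whose call changed.

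**Figure D3:**
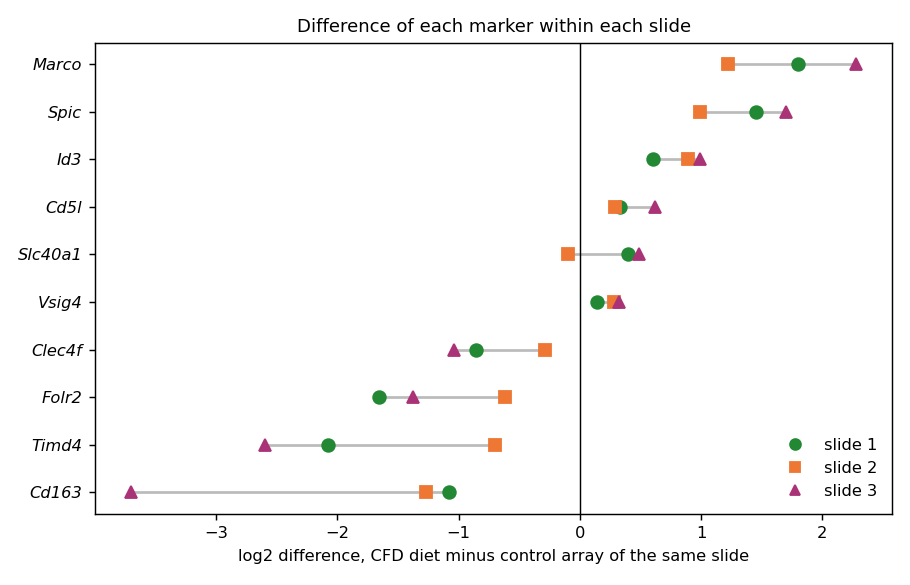
Difference in scaled log2 level between the CFD diet liver and the control liver on the same slide, for each resident Kupffer cell marker, with 1 point for each of the 3 slides. The other 9 markers keep 1 sign on all slides, as they must where the groups do not overlap, and Slc40a1 has 0.40, -0.10 and 0.49.

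No marker changed sign under any of the 15 alternatives, and the calls of all but Spic and Id3 moved across the threshold under at least 1. Many of the alternatives could not change a sign. For a marker with 1 probe, the filters, the probe rule, the variance model and the slide block could change the p-value but not the fold. Where the groups did not overlap, leaving out 1 array could not change the sign either. The widest spread was that of Cd163, from -2.53 to -1.12. Timd4 ran from -2.41 to -1.01, Folr2 from -1.58 to -1.0 and Clec4f from -0.97 to -0.39. Marco ran from 1.34 to 2.36, Cd5l from 0.21 to 0.86, Slc40a1 from 0.06 to 0.62 and Vsig4 from 0.04 to 0.44.

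**Figure D4:**
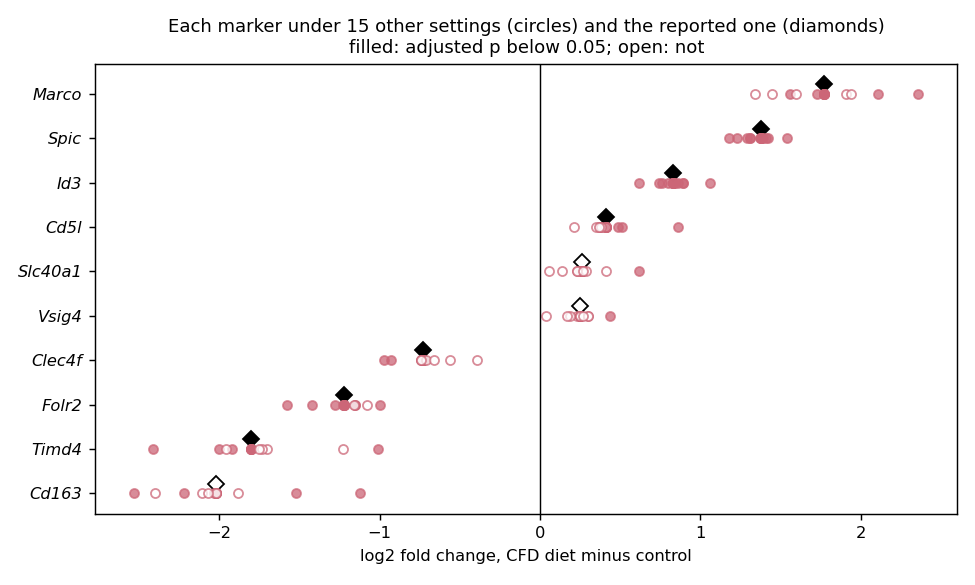
Log2 change of each resident Kupffer cell marker (CFD diet minus control) under the reported setting and each of 15 alternatives, with calls at an adjusted p below 0.05 set apart from the rest. All values of a marker lie on 1 side of 0, and Spic (1.18 to 1.54) and Id3 (0.62 to 1.06) are called throughout.

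General macrophage genes rose, while the markers went both ways. All 16 genes of a pan-macrophage and myeloid list rose, with a median log2 change of 1.81. The summed level of the list (linear, relative to the 75th percentile) was 113 to 159 in control livers and 458 to 647 on the CFD diet. Cd14, the co-receptor for bacterial lipopolysaccharide, rose by 2.85 ± 0.15 (log2, SE; limma adjusted p = 9.35e-05), the lysosomal glycoprotein gene Cd68 by 2.58 ± 0.17 (0.000133) and the protease gene Ctss by 2.57 ± 0.20 (0.000234). The defining receptors rose less, Adgre1 by 0.87 ± 0.17 (0.00609) and Csf1r by 0.69 ± 0.17 (0.0142). Of 14 tested genes of monocytes and recruited macrophages, 7 were well above background on all CFD diet arrays but not on all control arrays, and so could enter the test only by being high on the diet. The other 7, well above background on all 6 arrays, all rose (median 3.89). The summed level of all 14, including the genes that entered only through the CFD diet arrays, was 9.78 to 13.3 in control and 75.4 to 124 in CFD diet livers. Rises on the list included the chemokine gene Ccl2 (4.47 ± 0.30, limma adjusted p = 0.000133) and the beta-glucan receptor gene Clec7a (4.13 ± 0.22, 9.35e-05). Chil3 (6.25 ± 0.40, limma adjusted p = 0.000125) was among the 7 that entered only through the CFD diet arrays, as 1 control array did not detect it above background. Of 13 tested genes of lipid-associated macrophages, 3 likewise entered only through the CFD diet arrays, and the 10 well above background on all 6 arrays all rose (median 2.03), with Trem2, a lipid-sensing receptor, at 6.02 ± 0.27 (limma adjusted p = 6.59e-05), Lgals3 at 4.55 ± 0.20 (6.36e-05) and Cd63 at 4.46 ± 0.14 (4.14e-05). What these genes contribute to the values of Marco, Spic, Id3 and Cd5l was not tested.

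When each array's mean over the 16 pan-macrophage genes was subtracted, 9 of the 10 markers were lower in every CFD diet liver than in any control, by 0.42 (Spic) to 3.82 (Cd163) on the log2 scale. Marco overlapped between groups, with a difference of -0.04. But 86.4% of all tested genes were lower without overlap on this scale, and 4.36% higher, because the mean that was subtracted had itself risen by 1.80. The count of markers is therefore near the background. This comparison was chosen after the values had been seen.

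The other Kupffer cell genes were mixed too. Of 31 tested genes of that list, which holds none of the 10 markers, 19 rose, 6 fell and 6 did not pass. Leaving out 2 genes that entered only through the CFD diet arrays, 17 of 29 rose, with a median log2 change of 0.72. The smallest p-values among the rises were those of Hmox1, the haem-degrading enzyme (1.89 ± 0.17, limma adjusted p = 0.000419), the class A scavenger receptor gene Msr1 (1.63 ± 0.16, 0.000477) and Slc11a1, a metal transporter of the phagosome (1.70 ± 0.17, 0.000570). The falls included the retinoid X receptor gene Rxra (-0.98 ± 0.13, limma adjusted p = 0.00154) and Hpgd, a prostaglandin-degrading enzyme (-1.01 ± 0.17, 0.00407). Rxra and Hpgd are made by hepatocytes as well.

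**Figure D5:**
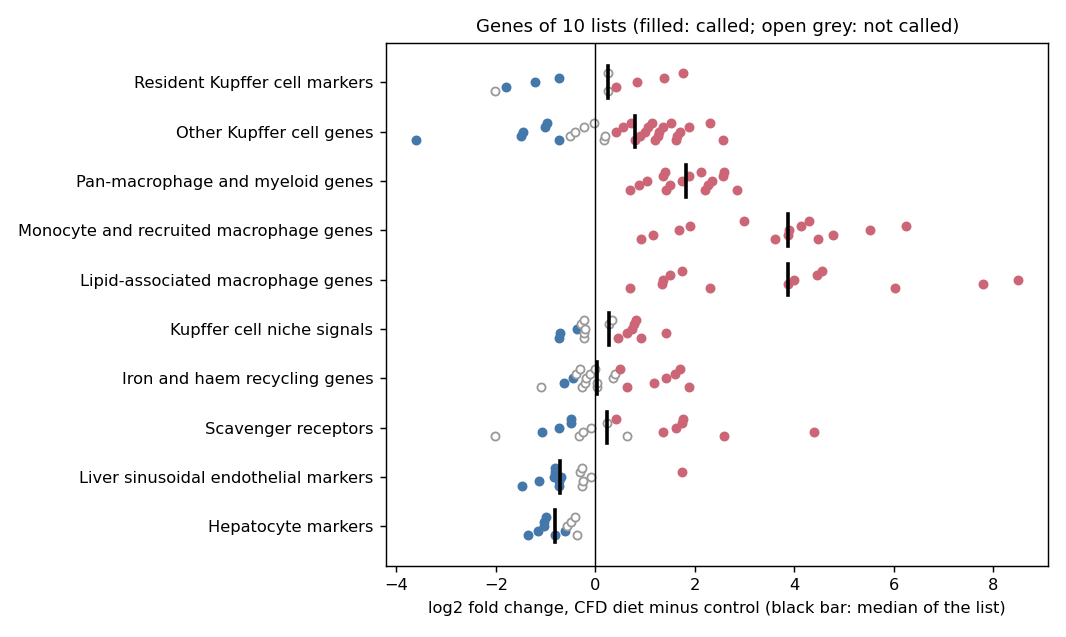
Log2 change on the CFD diet (CFD diet minus control) of every tested gene in 10 of the gene lists, 1 point per gene, filled where called (limma, adjusted p below 0.05) and open where not, with a black bar at the median of the list. The resident markers lie on both sides of 0 (median 0.25), while all 16 pan-macrophage genes are called higher (median 1.81), and 7 of the monocyte and 3 of the lipid-associated macrophage points are genes that entered the test only through the CFD diet arrays.

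Signals that keep Kupffer cells in place did not move 1 way. Of 17 tested niche genes 7 rose, 3 fell and 7 did not pass (median 0.27). Il34, a ligand of the Csf1 receptor, rose by 1.42 ± 0.17 (limma adjusted p = 0.00109), Gas6, a bridge between dead cells and their receptors, by 0.92 ± 0.17 (0.00500) and the Notch ligand gene Jag1 by 0.74 ± 0.16 (0.00844). Dll1, also a Notch ligand gene, fell by 0.74 ± 0.15 (0.00772) and Bmp2 by 0.71 ± 0.18 (0.0161). Smad4, which carries the signal of bone morphogenetic proteins and is needed for Kupffer cell identity, fell by 0.36 ± 0.11 (limma adjusted p = 0.0304). The Smad4 call was lost with the slide as a block (-0.36, limma adjusted p = 0.0732) and under quantile normalization (-0.16, 0.227), that of Dll1 with normexp (-0.33, 0.175), and that of Bmp2 without control liver 2 (-0.63, 0.0544), control liver 3 (-0.66, 0.0633) or CFD diet liver 3 (-0.63, 0.0599). Smad4 was also lost without any single array other than CFD diet liver 2, at -0.36 to -0.32. Of the niche genes 4 were called higher without control liver 3, and 1 was called lower without control liver 2, control liver 3 or CFD diet liver 3.

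Spic, Cd163 and Slc40a1 belong to the handling of haem and iron, and Folr2 to that of folate. Of 21 other iron and haem recycling genes 7 rose, 2 fell and 12 did not pass (median 0.03). Besides Hmox1 and Slc11a1, the haem exporter gene Flvcr1 rose by 1.18 ± 0.18 (limma adjusted p = 0.00248). Its other probe gave 3.55 ± 0.23, and the mean of both was not called (1.46 ± 0.76, limma adjusted p = 0.148). The falls were of Cp, the ferroxidase ceruloplasmin (-0.45 ± 0.10, 0.0115), whose change turned to 0.02 under quantile normalization, and of the haemopexin receptor gene Lrp1 (-0.63 ± 0.15, 0.0134), whose mean over its probes was 0.09, and neither was called without control liver 3. The other Lrp1 probe rose, by 0.81 ± 0.21 (limma adjusted p = 0.0169 in the fit over all probes). Quantile normalization called 11 genes of the list higher. Of the 4 tested folate receptors and carriers, Slc46a1, the proton-coupled folate transporter, fell by 1.11 ± 0.26 (limma adjusted p = 0.0129) alongside Folr2. The reduced folate carrier gene Slc19a1 (0.39 ± 0.14, 0.0544) and Folr1 (0.65 ± 0.25, 0.0709) did not pass.

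The gene families of the markers also held genes of both directions. In the Id and TIM families, of which Id3 and Timd4 are 2 of the 8 members, 5 rose and 3 fell. The rises include Havcr2, which entered the test only through the CFD diet arrays and so only by being high on the diet. Of the 7 members well above background on all arrays, 4 rose and 3 fell. The other Id genes rose with Id3, by 2.30 ± 0.29 for Id1 (limma adjusted p = 0.00131), 1.20 ± 0.19 for Id2 (0.00299) and 0.90 ± 0.18 for Id4 (0.00625). In the TIM family, Havcr2 (TIM-3, above background on 2 control arrays) rose by 3.25 ± 0.22 (0.000134), while Havcr1 (-1.11 ± 0.23, 0.00807) and Timd2 (-1.15 ± 0.24, 0.00827) fell with Timd4. The other Timd2 probe gave -0.32 ± 0.23 and was not called (limma adjusted p = 0.277 in the fit over all probes). Of 17 tested scavenger receptors, 3 of them markers, 7 rose and 4 fell. Scara3 (4.39 ± 0.23, limma adjusted p = 9.18e-05), Cd68 and the fatty acid receptor gene Cd36 (1.75 ± 0.16, 0.000401) had the smallest p among the rises. The endothelial receptor gene Stab2 (-0.72 ± 0.11, 0.00276), Colec12 (-1.07 ± 0.22, 0.00721) and Scarb2 (-0.48 ± 0.12, 0.0178) had them among the falls, of which Scarb2 missed the threshold under quantile normalization (-0.21, 0.0877) and without control liver 3 (-0.44, 0.0795), CFD diet liver 1 (-0.43, 0.0523) or CFD diet liver 3 (-0.45, 0.0623). Without control liver 3 or CFD diet liver 1, 2 scavenger receptors were called lower.

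Markers of the other liver cell types moved as well. Of 14 sinusoidal endothelial genes 8 fell and 1, Lyve1, rose (1.74 ± 0.18, limma adjusted p = 0.000559), and the summed level of that list was 63.2 to 68.3 in control livers and 41.3 to 51.6 on the CFD diet. All 12 stellate cell and myofibroblast genes rose (median 1.25). Among genes well above background on all 6 arrays, 5 of 5 cholangiocyte genes (median 3.65) and 3 of 3 neutrophil genes (median 3.72) rose, and 3 and 2 more entered only through the CFD diet arrays. Spp1 (3.99) is on both the cholangiocyte list and the lipid-associated macrophage list, so those counts share a gene. Of 11 hepatocyte genes 7 fell (median -0.81), Apoa1 by 1.04 ± 0.27 (0.0192) and Ttr by 0.61 ± 0.18 (0.0275) among them, and Alb did not pass (-0.49 ± 0.26, 0.162). The count of hepatocyte genes that fell was 11 without CFD diet liver 2 and 4 under quantile normalization. Of 12 T, B and NK cell genes 10 did not pass. Of 5 red cell and erythroblast genes 3 fell (median -1.27), Klf1, an erythroid transcription factor, by 1.89 ± 0.39 (limma adjusted p = 0.00791), Alas2, the erythroid enzyme of haem synthesis, by 1.61 ± 0.30 (0.00520) and Slc4a1, the anion exchanger of the red cell membrane, by 1.27 ± 0.23 (0.00454), and all 5 were called lower without CFD diet liver 2. With normexp the call of Slc4a1 was lost (-0.50, limma adjusted p = 0.0994). Of 6 dendritic cell genes, Ccr7 (1.72 ± 0.23, 0.00156), Clec9a (1.07 ± 0.32, 0.0287) and Flt3 (0.78 ± 0.27, 0.0470) rose, and these are the 3 that entered only through the CFD diet arrays. A single dendritic cell gene was called higher without control liver 1, 2 or 3 or CFD diet liver 3. The part of these shifts in the marker values was not tested.

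The genes whose values over the 6 arrays were closest to those of Spic, as differences from the control mean, were Rerg (Euclidean distance 0.106), Arhgap9 (0.187), Ccdc92 (0.202) and Arhgef6 (0.202). For Id3 they were Cplx2 (0.099), Golph3l (0.099), Gas8 (0.105) and Dennd2d (0.105). The distance is in log2 units, and a near pattern over 6 arrays is a description only.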

How the data were processed

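Liver RNA was hybridised in 1 colour (Cy3) to Agilent mouse arrays, 3 per diet, with groups taken from the labels. The deposited scanner files give an intensity per spot, background-subtracted and detrended by Agilent Feature Extraction, per the file headers (version 10.5.1.1; the submitters' processing notes name 10.7). The number of arrays limits the precision. Levels are log2 of the processed signal, less the 75th percentile over the non-control spots of that array, with outlier spots dropped and a probe's spots averaged. Testing took probes that at least 1 group had well above background on its 3 arrays, and a gene was its tested probe with the highest mean (15911 genes, 38 with a missing value). Diets were compared by limma 3.58.1 in R 4.3.3 (lmFit, eBayes, two-sided), with Benjamini-Hochberg adjustment over all tested genes and calls at an adjusted p below 0.05. The fit was tested on simulated data.

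The members and lists were chosen with earlier results of these data known. Besides the markers, up to 3 genes called in each direction per list were named, by smallest p, plus the defining markers of a cell type, and 1 gene that this rule names is not reported here; Euclidean distance gave the 4 genes nearest to each of the 2 markers with the smallest p. Same-numbered replicates shared a slide, per the file headers, so the replicate block is a slide block. The correlations of their deviations from the group means were 0.17, -0.07 and -0.01. The deposited value table holds linear intensity values (column medians 67.98, 61.49 and 67.63 for control 1 to 3, 72.67, 73.88 and 80.59 for CFD diet 1 to 3). By rank correlation (1 in each case), every column held another replicate of its own group than its name says. Which numbering is intended is unknown, no centring of genes was seen, and the table served as an alternative. Probe positions are those of the files (mm7). Alternatives were another background correction, scaling, filter, probe rule and variance model, the block, the value table and leaving out each array.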

Additional observations from a re-analysis of the deposited data

How the results depend on the processing

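Over 15 alternatives no marker reversed, though many of them could not change the sign of a marker whose groups did not overlap. Without a filter on dim probes, 2 markers were called higher and 0 lower by limma (4 lower at an unadjusted p below 0.05), 2460 tested genes were called lower, and 23 genes over the other lists. Of all tested genes, 11% were called higher and 8.89% lower in that setting. The calls of Clec4f (-0.73), Timd4 (-1.80), Cd5l (0.41), Marco (1.77) and Folr2 (-1.22) were lost there, with 27670 genes tested. Quantile normalization ended the call of Clec4f (-0.39) and made those of Vsig4 (0.44) and Slc40a1 (0.62), and turned Cp to 0.02. The mean of probes turned Lrp1 to 0.09 and lost Flvcr1 (1.46). Cd5l was lost with scaling to the array median (0.21), trend and robust (0.41) and the replicate block, which is the slide (0.41). Cd163 was called with normexp (-1.52), scaling to the median (-2.22), probes above background on all 6 arrays (-2.02) and the replicate block (-2.02). The block changed no other marker's call. Scaling to the median moved the median of all genes from -0.11 to -0.31 and the calls from 3776 higher and 4354 lower to 2934 and 5815.

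Leaving out 1 array at a time gave 2 to 4 markers higher and 0 to 4 lower. Among all tested genes, 3090 to 4187 (19.2% to 25%) were called higher and 2744 to 4848 (16.9% to 29%) lower. The changes ran from -0.97 to -0.56 for Clec4f, -2.41 to -1.23 for Timd4, 0.35 to 0.51 for Cd5l, 1.34 to 2.36 for Marco, -2.53 to -1.12 for Cd163 and -1.58 to -1.0 for Folr2. No marker was called lower without control liver 2, where 3 had an unadjusted p below 0.05. Of all tested genes, 20.7% were called higher and 21.6% lower without that array. The cause of these shifts was not tested. All markers were well above background on all 6 arrays. Timd4 and Cd163 had signals of 43.4 and 84.0 in CFD diet liver 3, and normexp background correction moved their changes to -1.01 and -1.52.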
